A study of Mus musculus with 24 samples.

Results

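The comparison described here set livers lacking JNK2 in hepatocytes after 16 weeks on a high fat diet against livers of the same genotype on chow. It used 6 of the series' 24 RNA-seq libraries, 3 on high fat and 3 on chow, chosen by their labels, and all 31027 loci of the deposited expression table, of which 10562 had a mean of at least 1 FPKM over the 24 libraries and were tested. All mice were C57BL/6J. The 6 libraries came from AlbCre+ Jnk2flox/flox mice, a genotype that the labels call a knock down and that is called Jnk2 here. A further 4 groups of 3 libraries each serve for comparison: control mice that carried AlbCre+ alone, and Jnk1 mice (AlbCre+ Jnk1flox/flox), each on both diets. Every one of these groups therefore carries the Alb-Cre transgene. Its albumin promoter is active in hepatocytes. Which other cells of the liver keep their Jnk2 alleles was not measured, and a bulk library measures all liver cells together. Whether replicates are separate mice is not stated in the labels. The p-values therefore rest on differences among these samples alone, and those may be technical.

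JNK1 and JNK2 are stress-activated protein kinases, encoded by Mapk8 and Mapk9, that phosphorylate c-Jun and related AP-1 transcription factors. In liver they are switched on by saturated fatty acids and by inflammatory cytokines, and they are known for restraining PPARα, the nuclear receptor that turns on genes of fatty acid oxidation, and the hormone FGF21. A high fat diet given for months loads hepatocytes with triglyceride stored in lipid droplets, lowers the liver's response to insulin, and draws in and activates macrophages.

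Mapk9 (chromosome 11, 49846751 to 49886421; all positions are mm10, counted from 1) stood at 6.89, 6.59 and 5.6 FPKM on chow and 7.44, 6.58 and 7.79 on high fat. In control livers it was at 9.83, 9.19 and 10.8 on chow and 11.8, 10.3 and 10.9 on high fat. All 6 Jnk2 libraries lay below all 6 control libraries, and the diet difference within Jnk2, 0.17 ± 0.08 (adjusted p = 0.143), did not pass the test. Each value covers the whole locus, so that reads outside a deleted stretch count, as do those of cells in which the transgene is silent. Mapk8, which was not targeted in these mice, was at 5.23, 5.18 and 5.2 FPKM on chow and 3.94, 3.38 and 4.84 on high fat; it was lower on high fat, at -0.31 ± 0.11 (adjusted p = 0.0438), a call that was lost in a fit restricted to the groups compared (adjusted p = 0.134) and without any one of the libraries other than high fat replicate 3 (0.0891 to 0.206). Mapk10, which encodes the neuronal JNK3, was listed at 0 in all 6. Among the 15 tested loci of the kinases and phosphatases around JNK, Map3k11 (0.35 ± 0.12, adjusted p = 0.0387) and Dusp10 (0.44 ± 0.14, adjusted p = 0.0228) were the other calls. Both were lost with quantile normalization, with the length trend removed, in a fit of the groups compared and without chow replicate 3 or high fat replicate 3 (adjusted p = 0.056 to 0.139 for Dusp10 and 0.0743 to 0.226 for Map3k11). Map3k11 was also not called with size factors (0.167). Changes are differences of log2(FPKM + 1) ± SE, high fat minus chow, which understate the change of low genes, and each adjusted p is that of limma after Benjamini-Hochberg adjustment over all loci tested.

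The 6 libraries summed to 649876 to 719675 FPKM. Their depth in reads is unknown, so no counting error can be given. Pearson correlations within the groups of 3 were at least 0.9679 on chow and 0.9514 on high fat. A pair of libraries stood apart. High fat replicate 3 was nearer to chow than the other 2 at some loci and exceeded them at others, and chow replicate 1 was high in acute phase and neutrophil genes. Where leaving out either ended a call of a described gene or moved its printed change by over 1.5 times, the value without it is given. Alb, the albumin gene, was listed at 0 in chow replicates 2 and 3, a failed estimate, and is not read as a change. The locus of Serpina1a, Serpina1c and Serpina1d, antitrypsin genes of hepatocytes, was listed at 0 in the same 2 libraries and is treated alike. Of the other 10 tested loci of hepatocyte markers 1 was higher and 4 were lower, beside 19.7% and 6.39% of all tested loci. The falls were Apob (-1.22, adjusted p = 4.65e-05), 2 loci of Cps1 (-1.47 and -1.04, adjusted p = 0.00143 and 0.0208) and Ass1 (-0.71, adjusted p = 0.00331). Ttr rose (0.55, adjusted p = 0.039). Apoa1 was not called (0.08, adjusted p = 0.688), at 7071, 7125 and 6912 FPKM on chow and 6302, 7457 and 8739.6 on high fat. Exocrine pancreas markers summed to 7.54 to 270 FPKM on chow and 6.4 to 12.1 on high fat, and none of the 10 tested was called.

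High fat feeding changed 2751 loci in Jnk2 livers at an adjusted p under 0.05, 2076 of them higher (19.7% of loci tested) and 675 lower (6.39%). In control livers the same contrast called 1063 loci higher (10.1%) and 654 lower (6.19%). Whether the diet effects differ was tested directly: 1005 loci differed between Jnk2 and control, 653 with a more positive change in Jnk2 (6.18%) and 352 with a more negative one (3.33%). Against Jnk1 livers the corresponding counts were 680 (6.44%) and 438 (4.15%). The excess of rises depends on the scaling. With size factors, which move the median change of all loci from 0.10 to -0.007, 1295 loci were higher (12.3%) and 1201 lower (11.4%), and 1970 of the 2751 calls remained with the same direction. The median change of all tested loci, 0.10, is therefore the level against which the medians below are read. Counts of called list members are likewise read against the shares of all tested loci, 19.7% higher and 6.39% lower. The excess of more positive differences depends on the scaling too. With size factors 556 differences from control were more positive and 511 more negative, and those from Jnk1 were 533 and 604.

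Changes also went with transcript length. The median change was 0.04 in the shortest of 10 length bins, 0.20 in the third and -0.12 in the longest, so it did not fall steadily. The Spearman correlation with length was -0.19 over 10204 loci with a known length, a description across loci that share libraries. For the difference from control it was -0.13, and for the difference from Jnk1 -0.3. High fat replicates 1 and 2 had lower values at longer transcripts relative to the mean of all libraries (correlations -0.14 and -0.26), while high fat replicate 3 (0.20) and the chow libraries (0.17 to 0.32) had higher ones. With each library's length trend removed, 1234 loci were higher (12.1%) and 1156 lower (11.3%), and 1709 calls remained with their direction. The differences from control were then 518 more positive and 493 more negative, and those from Jnk1 405 and 504. Without high fat replicate 3 there were 2120 higher (20.1%) and 849 lower (8.04%), and without chow replicate 1 there were 1728 higher (16.4%) and 488 lower (4.62%). Without chow replicate 3 the total was 1727, and without high fat replicate 1 it was 1791.

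The Jnk2 and control diet comparisons share no library. Of the Jnk2 calls, 457 higher loci were also higher in control, which is 22.0% of the Jnk2 calls and 43.0% of the control calls, and 124 lower loci were also lower, 18.4% and 19.0%. Calls in opposite directions numbered 44 and 28. Across the 10562 loci, which are not independent, the Pearson correlation of the changes was 0.313 with control and 0.303 with Jnk1. In the plot of list medians the lists lie in a different order in the 2 genotypes: the medians of the lipid handling, matrix and endothelial lists were higher in Jnk2, and the sterol, acute phase and chaperone lists lay below 0 in Jnk2 but not in control.

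**Figure D1:**
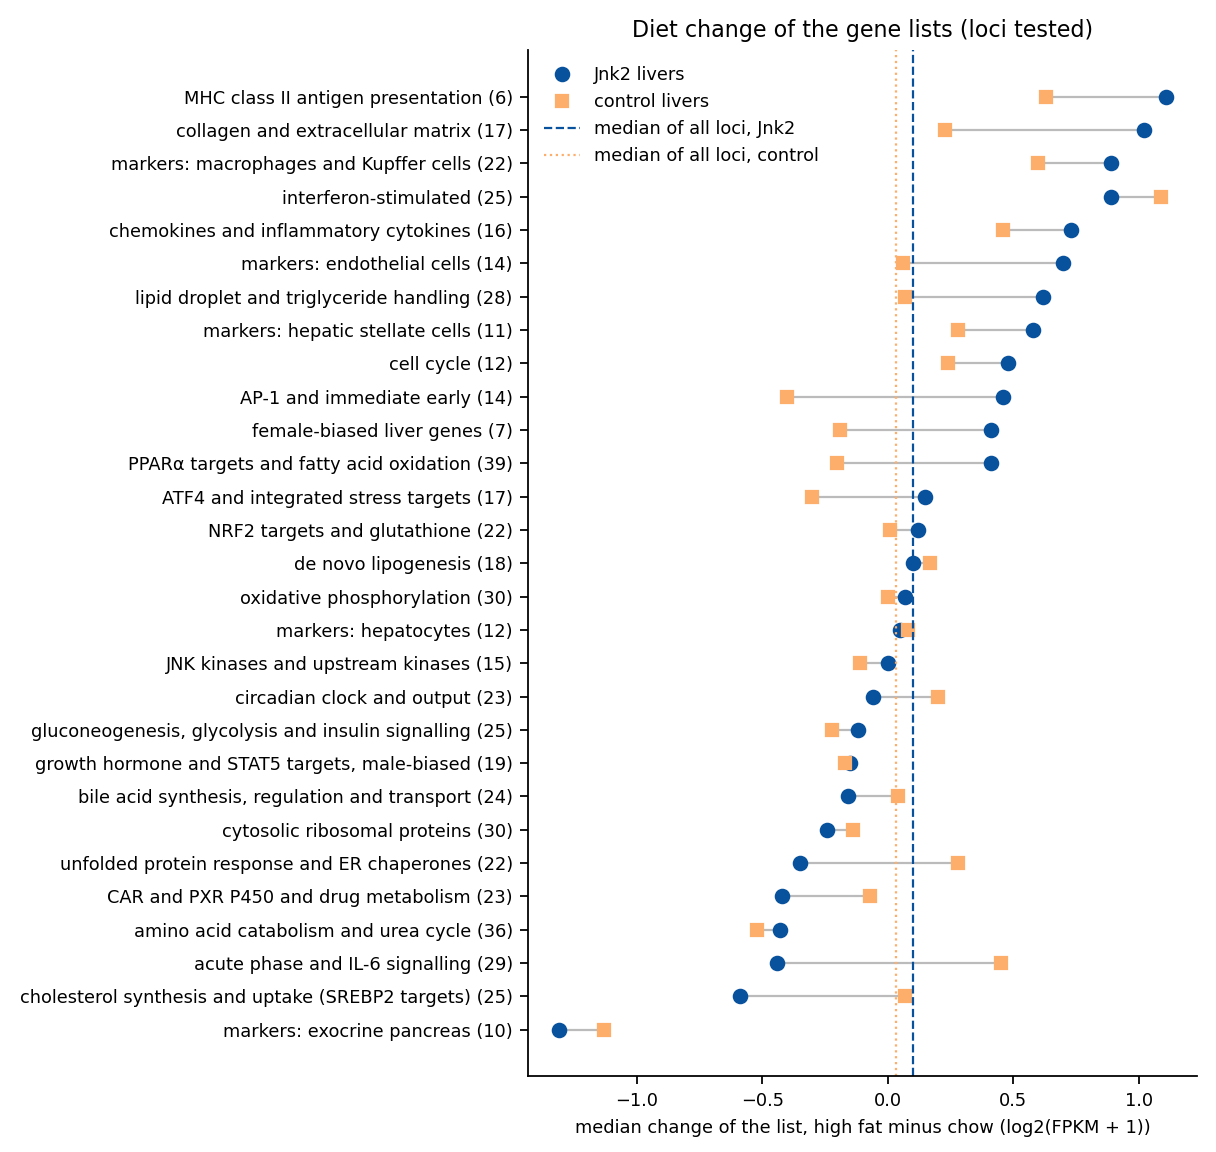
Median change from chow to high fat, on the log2(FPKM + 1) scale, of each gene list with at least 6 tested loci (number in brackets), in Jnk2 livers (circles) and control livers (squares); vertical lines mark the medians of all tested loci. The collagen list stands at 1.02 in Jnk2 and 0.23 in control, and the acute phase list at -0.44 and 0.45.

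Genes that coat, fill and empty lipid droplets were more often higher than lower on high fat. Of 28 tested loci of lipid droplet and triglyceride handling, 16 were higher on high fat, 1 was lower and 11 were not called, with a median of 0.62 against 0.07 in control, and 10 of the 28 had a more positive diet change in Jnk2 than in control. The higher count was 13 with size factors or without chow replicate 2, and 12 in a fit restricted to the groups compared. Cidec (chromosome 6, 113424636 to 113435760), whose protein fuses lipid droplets into larger ones, was at 16.1, 8.86 and 8.9 FPKM on chow and 52.9, 50.1 and 146 on high fat. Every high fat library lay above every chow library, with replicate 3 the highest, and the change was 2.64 ± 0.37 (adjusted p = 7.82e-05), or 2.15 (adjusted p = 0.000212) without replicate 3. In control livers Cidec stood at 12.3, 11.3 and 17.2 on chow and 14.5, 5.03 and 4.33 on high fat, with no call (-0.86 ± 0.37, adjusted p = 0.119), so the diet changes differed by 3.50 ± 0.52 (adjusted p = 0.000692).

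Mgll (chromosome 6, 88724412 to 88828360), which encodes the lipase that finishes triglyceride breakdown by splitting monoglycerides, was at 65.2, 63.8 and 55.3 FPKM on chow and 145, 137 and 150.3 on high fat. The groups were far apart and tight, the change was 1.22 ± 0.10 (adjusted p = 1.97e-07), and it differed from control, where the libraries read 76, 72.2 and 76.8 on chow and 73.4, 62.8 and 81.6 on high fat, by 1.27 ± 0.14 (adjusted p = 7.5e-05). Plin2, a coat protein of hepatocyte droplets, was at 308, 283 and 249 FPKM on chow and 475, 474 and 884 on high fat. It rose by 1.06 ± 0.18 (adjusted p = 0.000347), and by 0.76 (adjusted p = 0.000375) without replicate 3, whereas its change in control was -0.33 ± 0.18 (adjusted p = 0.21) and the difference 1.40 ± 0.25 (adjusted p = 0.00362).

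Members of the list that act in fatty acid uptake and esterification differed among themselves. Lpl, Dgat1 and Gpam were not called (0.44 ± 0.40, 0.01 ± 0.10 and 0.05 ± 0.22; adjusted p = 0.448, 0.948 and 0.895). Cd36, a fatty acid transporter, was at 17.8, 21.3 and 17.2 FPKM on chow and 89.2, 55.4 and 56.9 on high fat and rose by 1.76 ± 0.23 (adjusted p = 5.07e-05). Its control change was 1.48 ± 0.23 (adjusted p = 0.000347), and the difference of 0.28 ± 0.33 (adjusted p = 0.618) did not pass. Mogat1, which re-esterifies monoglycerides, was at 1.2, 0.689 and 0.985 FPKM on chow and 6.59, 5.53 and 5.55 on high fat. The rise was 1.82 ± 0.32 (adjusted p = 0.000539). Fabp4, a fatty acid binding protein of adipocytes and macrophages, was at 17, 9.04 and 10.1 FPKM on chow and 41.3, 33.8 and 47.3 on high fat. Its rise was 1.72 ± 0.42 (adjusted p = 0.00543). Adipocyte markers, which include Fabp4, summed to 12.9 to 27.9 FPKM on chow and 46.3 to 60.1 on high fat. Of the 4 tested 1 rose, beside 19.7% of all tested loci. The adipocyte genes Adipoq and Plin1 were under 1 FPKM in all 6 libraries, and the part of adipocytes was not tested.

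Smaller rises in the group included Plin3, Cideb, Agpat2, Fitm2 and Dgat2, at 0.59 to 0.83. Pnpla2, the lipase that begins triglyceride breakdown, was at 56.6, 50.5 and 49.8 FPKM on chow and 45.4, 49.1 and 91.5 on high fat and was not called (0.17 ± 0.19, adjusted p = 0.535). It fell in control (by 0.89, adjusted p = 0.00328), and the difference of 1.06 ± 0.26 (adjusted p = 0.0182) was lost without high fat control replicate 2 (adjusted p = 0.0528) and in a fit restricted to the groups compared (adjusted p = 0.0742). The member that fell was Lpin1, a phosphatidate phosphatase of triglyceride synthesis that also works with PPARα. It stood at 28.1, 51.8 and 43 FPKM on chow and 9.02, 7.79 and 12 on high fat. It changed by -1.96 ± 0.46 (adjusted p = 0.00415), with no overlap between groups.

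In Jnk2 livers more PPARα targets and genes of fatty acid oxidation rose on high fat than fell, while in control livers more of them fell than rose. Of 39 tested loci, 24 were higher, 0 lower and 15 not called, with a median of 0.41; in control 4 were higher and 12 lower, with a median of -0.20. The diet change was more positive in Jnk2 than in control at 21 of the 39 and more negative at none. With size factors 18 were higher, and with the length trend removed 17 were higher and 1 lower. In a fit restricted to the groups compared 17 were higher, and without high fat replicate 3 there were 24 higher and 3 lower. Among those not called were Cpt1a, Pdk4 and Angptl4 (0.33 ± 0.17, 0.01 ± 0.45 and -0.28 ± 0.21; adjusted p = 0.153, 0.999 and 0.328).

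Acot2 (chromosome 12, 83987861 to 83993875), a mitochondrial acyl-CoA thioesterase, was at 8.58, 8.23 and 6.96 FPKM on chow and 19.8, 18.6 and 28.2 on high fat. In control it went the other way, from 10.2, 10.3 and 10.8 on chow to 7.51, 6.01 and 5.52 on high fat. The rise of 1.36 ± 0.15 (adjusted p = 1.22e-05) and the control fall of 0.65 (adjusted p = 0.00759) differed by 2.01 ± 0.22 (adjusted p = 7.5e-05). Acot1, its near-identical cytosolic copy, shares sequence with it, so the split of reads between them is uncertain. The difference of Acot1 from control was 2.35 ± 0.27 (adjusted p = 0.000137), and its own rise in Jnk2, 0.63 ± 0.19 (adjusted p = 0.0211), was lost with size factors (adjusted p = 0.0634), with the length trend removed (0.0936), in a fit restricted to the groups compared (0.075), and without chow replicates 1 and 3 (0.0678 and 0.0848) or high fat replicates 2 and 3 (0.0509 and 0.0916).

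Acaa1b, a peroxisomal thiolase, was at 610.0, 684 and 591 FPKM on chow and 1244, 1316 and 1496 on high fat. The rise was 1.10 ± 0.15 (adjusted p = 5.11e-05). This differed from the control change by 1.66 ± 0.21 (adjusted p = 0.000164). Aldh3a2, the fatty aldehyde dehydrogenase, was at 163, 186 and 168 FPKM on chow and 449, 398 and 504 on high fat. Its rise was 1.38 ± 0.11 (adjusted p = 1.97e-07), and the difference from control was 1.06 ± 0.15 (adjusted p = 0.000617). In both genes the high fat libraries lay far above chow with none apart. Vnn1, a pantetheinase that PPARα induces, rose by 1.29 ± 0.13 (adjusted p = 5.02e-06), and its difference from control, 0.44 ± 0.19 (adjusted p = 0.139), did not pass, although it did without chow control replicate 3 (0.60, adjusted p = 0.0446).

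Acadm, a medium-chain acyl-CoA dehydrogenase of the mitochondrion, also rose by 0.64 ± 0.12 (adjusted p = 0.00086). Creb3l3, a liver transcription factor that works with PPARα, rose by 0.42 ± 0.07 (adjusted p = 0.00032), or by 0.23 (adjusted p = 0.0131) with the length trend removed, and differed from control by 0.64 ± 0.10 (adjusted p = 0.000986). Ppara itself was at 37.6, 41.5 and 44 FPKM on chow and 49.7, 48.4 and 54.9 on high fat. That rise of 0.31 ± 0.11 (adjusted p = 0.0463) did not survive size factors (adjusted p = 0.239), length trend removal (0.326), quantile normalization, a fit of the groups compared, or the loss of any one of the 6 libraries (0.056 to 0.162). Pparg, the related receptor of fat storage, had 3.44, 3 and 2.35 FPKM on chow and 13.9, 8.23 and 8.1 on high fat and rose by 1.46 ± 0.20 (adjusted p = 5.6e-05). In control Ppara rose by 0.36 (adjusted p = 0.0325) and Pparg by 0.66 (adjusted p = 0.0284).

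Some classical targets depended on 1 library. Fgf21 (chromosome 7, 45613890 to 45615490), the fasting hormone, was at 6.57, 5.05 and 7.37 FPKM on chow and 12.8, 13.6 and 68.2 on high fat. All 3 high fat libraries lay above all chow libraries, but replicate 3 was far above the others. The change of 1.73 ± 0.44 (adjusted p = 0.00747) became 0.97 (adjusted p = 0.0273) without replicate 3, was not called in a fit restricted to the groups compared (adjusted p = 0.112), and its difference from control, 1.64 ± 0.62 (adjusted p = 0.0978), did not pass. Ehhadh, a peroxisomal β-oxidation enzyme, was at 567, 608 and 473 FPKM on chow and 301, 442 and 1479 on high fat. Replicates 1 and 2 lay below chow and replicate 3 far above, so that no change was called (0.09 ± 0.35, adjusted p = 0.88), and without replicate 3 Ehhadh fell (-0.58, adjusted p = 0.0313). In control it fell from 577, 646 and 812 on chow to 159, 133 and 166 on high fat, and the difference of 2.23 ± 0.49 (adjusted p = 0.0105) was not called in a fit of the groups compared (adjusted p = 0.0648). Cyp4a14, a fatty acid hydroxylase with near-identical copies whose values are uncertain for that reason, was at 1937, 2277 and 2081 FPKM on chow and 904, 1254 and 3312 on high fat, not called with all libraries (-0.43 ± 0.34, adjusted p = 0.375) and lower without replicate 3 (-0.97, adjusted p = 0.0111).

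**Figure D2:**
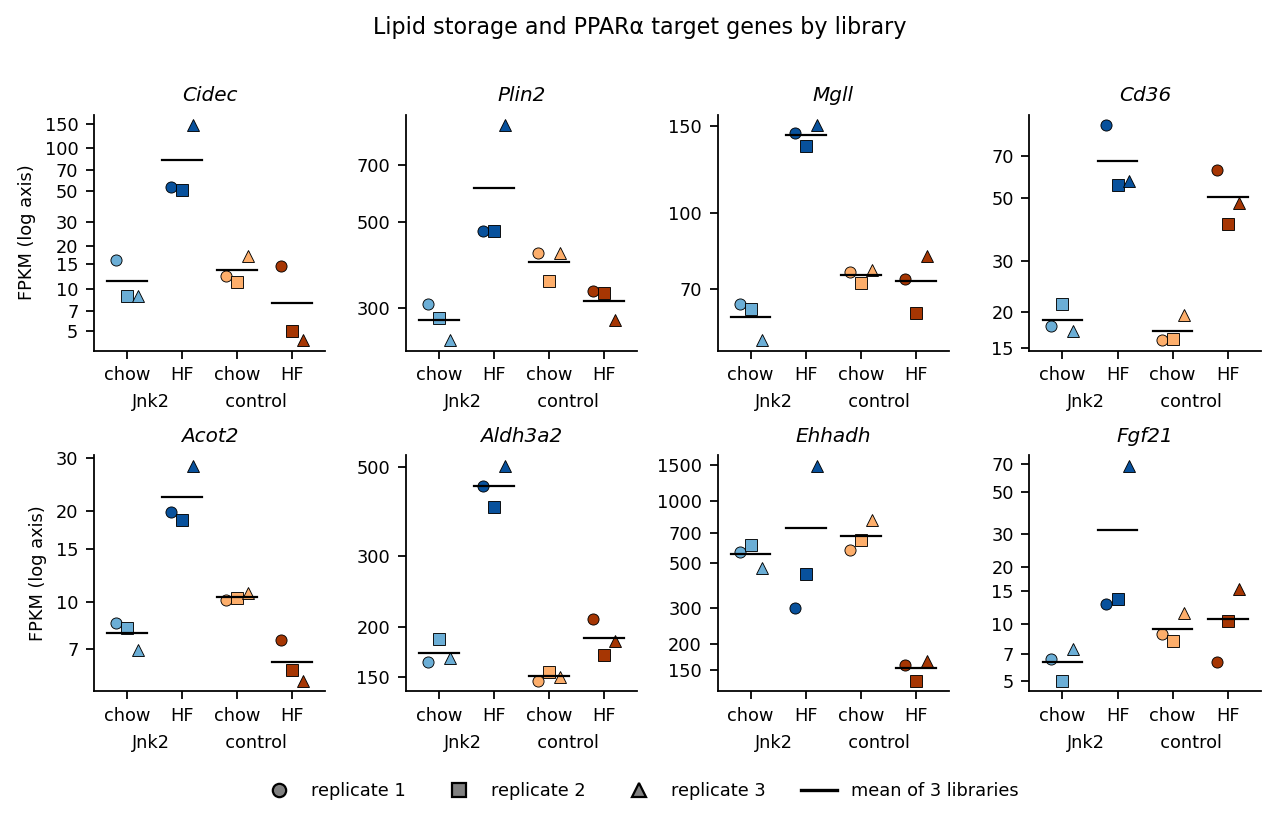
FPKM on a log axis for 8 genes of lipid storage and fatty acid oxidation in chow and high fat (HF) libraries of Jnk2 and control livers; each point is a library, its shape the replicate number, and each line a mean of 3. High fat Jnk2 libraries exceed all others for Cidec, Plin2, Mgll, Acot2 and Aldh3a2, whereas Ehhadh and Fgf21 are set apart by replicate 3.

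Genes of cholesterol synthesis and uptake fell far more often than they rose. Among 25 tested targets of SREBP2, the transcription factor that raises sterol synthesis when cholesterol is short, 10 were lower, 1 was higher and 14 were not called, with a median of -0.59 against 0.07 in control. The lower count was 6 without chow replicate 2 and 4 without chow replicate 3 or high fat replicate 1, and 14 with size factors. Sqle (chromosome 15, 59315092 to 59331193), which makes squalene epoxide, was at 4.41, 5.2 and 6.92 FPKM on chow and 0.372, 1.62 and 0.868 on high fat. The change was -1.77 ± 0.42 (adjusted p = 0.00499). The lowest chow library of Sqle was above its highest high fat library.

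The difference of Sqle from control (-1.83 ± 0.60, adjusted p = 0.0576) passed without chow control replicate 1 or high fat control replicate 3 (adjusted p = 0.033 and 0.0423). Control livers varied widely here, with Sqle at 5.94, 3.38 and 1.3 on chow and 2.89, 5.4 and 2.21 on high fat. Cyp51 fell by 1.24 ± 0.33 (adjusted p = 0.0102; 0.0617 without high fat replicate 1). Idi1 was at 10.7, 16.7 and 19.9 FPKM on chow and 2.31, 7.06 and 4.47 on high fat. It changed by -1.63 ± 0.49 (adjusted p = 0.0202), a call that was lost without chow replicates 2 and 3 and high fat replicate 1 (adjusted p = 0.0572, 0.0836 and 0.107). Hmgcs1 and Srebf2 were not called (-0.23 ± 0.26, adjusted p = 0.559 and -0.23 ± 0.13, adjusted p = 0.193).

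Promoters of this list are shown because more of its members fell than rose. SREBP2 is known to work with NF-Y, a factor that binds the CCAAT box. A CCAAT (or ATTGG on the other strand) stood in the 250 bases before the RefSeq start of 16 of 17 matched list genes (94.1%), against 37.5% of 27025 genes. The letters are common, and a match is a description, not a site in use. The share counts members of a list written as SREBP2 targets, whether called or not, so it describes the list and not the falls. The 150 bases before the start, on the gene's strand (RefSeq, GRCm38.p6), read as follows for 2 of the genes that fell, with each match in capitals.
Idi1 (chr13:8885456-8885605, plus strand): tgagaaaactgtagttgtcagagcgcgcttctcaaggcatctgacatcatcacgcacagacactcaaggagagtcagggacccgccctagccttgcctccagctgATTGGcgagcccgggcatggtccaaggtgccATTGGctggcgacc
Cyp51 (chr5:4104698-4104847, minus strand): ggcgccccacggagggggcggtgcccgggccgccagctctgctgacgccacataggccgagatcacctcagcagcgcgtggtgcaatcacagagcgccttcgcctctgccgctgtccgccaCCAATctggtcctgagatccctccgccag

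Lipogenic genes had calls in both directions. Of 18 tested loci 5 were higher and 4 lower, with a median of 0.10, at that of all loci. Both counts were 2 without chow replicate 3 and in a fit of the groups compared, and they were 3 and 2 without chow replicate 1, 2 and 4 with the length trend removed. Fasn, the fatty acid synthase, was at 8.07, 8.41 and 8.58 FPKM on chow and 4.57, 5.82 and 3.28 on high fat. The change was -0.78 ± 0.17 (adjusted p = 0.00344). This differed from the control change by -1.02 ± 0.25 (adjusted p = 0.0161); the difference was lost with the length trend removed (adjusted p = 0.0629). Acaca, which makes the malonyl-CoA that Fasn uses, was at 5.11, 4.37 and 4.19 FPKM on chow and 2.34, 2.43 and 3.09 on high fat. Its change was -0.62 ± 0.12 (adjusted p = 0.000811), and the difference from control was -0.89 ± 0.16 (adjusted p = 0.00376). Fads2, a desaturase of polyunsaturated fatty acids, rose by 0.86 ± 0.19 (adjusted p = 0.00317). Insr, which encodes the receptor for insulin, was at 19.9, 17.9 and 18.2 FPKM on chow and 10.9, 10.5 and 15 on high fat. It changed by -0.59 ± 0.15 (adjusted p = 0.0067).

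High fat replicate 3 also departed at lipogenic genes. Srebf1, the regulator of lipogenesis that insulin induces, was at 9.21, 9.93 and 7.64 FPKM on chow and 24.3, 26 and 8.08 on high fat. Replicates 1 and 2 lay above all chow libraries, and replicate 3 was within the chow range. The change was 0.90 ± 0.30 (adjusted p = 0.0357) with all libraries and 1.40 (adjusted p = 0.000255) without replicate 3. The call was lost with no filter, under size factors, quantile normalization and length trend removal, in a fit of the groups compared and without any one of the other 5 libraries (adjusted p = 0.0563 to 0.192). Scd1, a desaturase that Srebf1 regulates, was at 352, 247 and 262 FPKM on chow and 495, 307 and 25.5 on high fat and was not called either way (-0.84 ± 0.73, adjusted p = 0.425 and 0.46, adjusted p = 0.522).

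Genes of glucose handling had calls in both directions. Of 25 tested loci of gluconeogenesis, glycolysis and insulin signalling 4 were higher and 5 lower, beside 19.7% and 6.39% of all tested loci. The other 16 were not called. The counts were 3 and 3 without high fat replicate 1, 3 and 2 in a fit of the groups compared, and 6 higher and 11 lower without high fat replicate 3. Pcx, pyruvate carboxylase, rose by 0.46 ± 0.10 (adjusted p = 0.00231), and Fbp1, a gluconeogenic phosphatase, was not called (-0.20 ± 0.11, adjusted p = 0.199). Pck1, the cytosolic PEP carboxykinase gene, was at 1709, 1768 and 1691 FPKM on chow and 519.9, 670.4 and 1278 on high fat. The change was -1.17 ± 0.23 (adjusted p = 0.00146). G6pc, the glucose-6-phosphatase gene, was at 137 FPKM or more on chow and 47.2, 73.3 and 135 on high fat. Its change was -0.88 ± 0.23 (adjusted p = 0.00888). Replicate 3 lay nearest to chow in both, and without it the changes were -1.54 (adjusted p = 2.16e-05) and -1.27 (adjusted p = 4.76e-05). Neither call held in a fit restricted to the groups compared (adjusted p = 0.0598 and 0.14), and G6pc was not called without high fat replicate 1 (0.0642). Control livers had falls of 0.98 (adjusted p = 0.00817) and 1.39 (adjusted p = 0.000548). Apoa4, an apolipoprotein of intestine and steatotic liver, showed the opposite departure. It was at 195, 121 and 115 FPKM on chow and 597, 494 and 2022 on high fat. It rose by 2.58 ± 0.41 (adjusted p = 0.00023) or 1.95 (adjusted p = 0.000429) without replicate 3. Its locus overlaps Gm10680, so reads of the 2 cannot be told apart, and Gm10680 rose by 2.56 ± 0.41 (adjusted p = 0.000236), or 1.94 (adjusted p = 0.000496) without replicate 3.

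**Figure D3:**
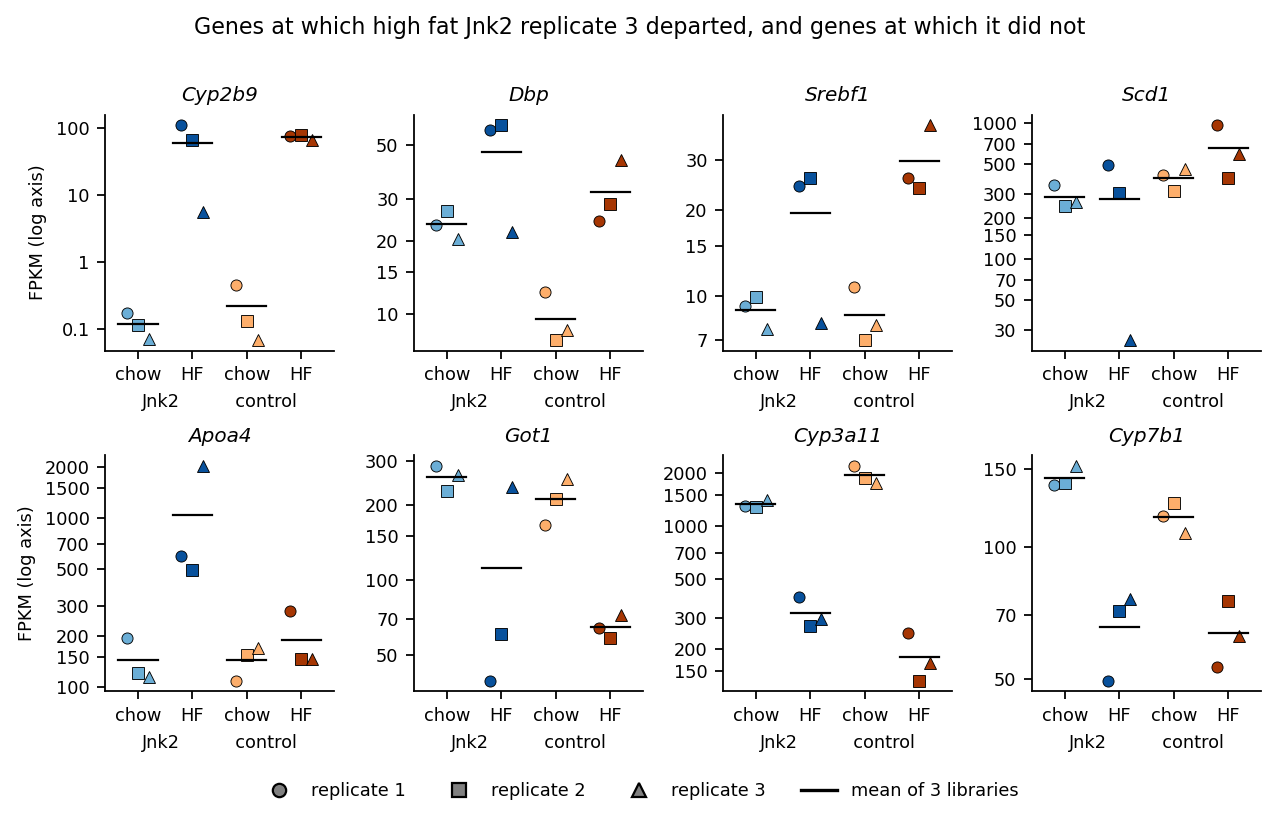
FPKM on a log axis for 8 genes, chosen after their values were seen, in chow and high fat (HF) libraries of Jnk2 and control livers; each point is a library and each line a mean of 3. Triangles mark replicate 3: in high fat Jnk2 it sits at 21.8 FPKM for Dbp and 25.5 for Scd1, below the other 2, at 2022 for Apoa4, above them, and with them for Cyp3a11 and Cyp7b1.

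The acute phase list, plasma proteins that hepatocytes secrete under inflammatory cytokines, had calls downward in Jnk2 and upward in control. In Jnk2 0 of 29 tested loci were higher and 9 lower, with a median of -0.44. In control 11 were higher and 0 lower, with a median of 0.45, and 17 of the 29 had a more negative diet change in Jnk2. Orm1 (chromosome 4, 63344566 to 63348162), which encodes an orosomucoid with near-identical copies, was at 1742, 1109 and 838 FPKM on chow and 558, 481 and 426 on high fat. The change was -1.27 ± 0.26 (adjusted p = 0.00153). This differed from the control change by -1.65 ± 0.36 (adjusted p = 0.0101). Saa1, a serum amyloid gene with the near-identical copy Saa2, was at 2703, 1257 and 246 FPKM on chow and 187, 126 and 84.6 on high fat. It ranged widely on chow, above all high fat libraries, and its change of -2.90 ± 0.81 (adjusted p = 0.0132) was lost without chow replicate 1 (-2.14, adjusted p = 0.0774) and in a fit of the groups compared (adjusted p = 0.0718).

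Apcs, the serum amyloid P gene, was at 225, 100.2 and 69.2 FPKM on chow and 57.6, 45 and 61.1 on high fat. Its change was -1.09 ± 0.27 (adjusted p = 0.00595), or -0.61 (adjusted p = 0.0235) without chow replicate 1; it was not called in a fit of the groups compared (adjusted p = 0.128). In control it rose from 84.2, 109 and 71.6 on chow to 172, 202 and 183 on high fat, and the difference was -2.17 ± 0.38 (adjusted p = 0.0028). Il1r1, the interleukin 1 receptor gene, fell by 1.00 ± 0.26 (adjusted p = 0.0084) and differed by -1.66 ± 0.37 (adjusted p = 0.0105). The metallothionein genes Mt1 and Mt2, which such cytokines and metals induce, fell as well, Mt1 by 1.65 ± 0.37 (adjusted p = 0.00317). Mt2 was at 682, 411 and 341 FPKM on chow and 99.8, 58.1 and 131 on high fat. It changed by -2.31 ± 0.50 (adjusted p = 0.00248), and the difference from control was -2.77 ± 0.70 (adjusted p = 0.0203). Lcn2, lipocalin 2, was not called in Jnk2, at 193, 52.1 and 15.8 FPKM on chow and 80.9, 48.8 and 56.8 on high fat, while in control it went from 22.4, 63.1 and 22.5 on chow to 323, 359 and 326 on high fat. Its difference of -3.21 ± 0.92 (adjusted p = 0.0351) was lost without chow replicate 1 (-2.31, adjusted p = 0.0758) and without any one of 7 of the other 11 libraries (0.0569 to 0.0807).

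Chow replicate 1 moved with part of this. Neutrophil markers summed to 22.0 to 148 FPKM on chow and 17.7 to 26.5 on high fat, with S100a8, a neutrophil alarmin, at 82.3, 10.5 and 11.2 FPKM on chow and 11.4, 7.5 and 11.9 on high fat; 4 of the 10 markers passed the level filter and none was called. Without chow replicate 1 the acute phase list had 4 lower and 1 higher, with a median of -0.30. Other libraries moved the count too: 5 were lower without high fat replicate 1, 5 lower and 1 higher without high fat replicate 2, and 13 lower without chow replicate 3. In a fit restricted to the groups compared 2 were lower. The part of neutrophils in these results was not tested.

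Genes for chaperones that fold secreted proteins in the endoplasmic reticulum (ER) were called in the same directions. Of 22 tested loci of the unfolded protein response, 0 were higher and 7 lower, with a median of -0.35 against 0.28 in control, and 7 differed from control, all more negative in Jnk2. With size factors 10 were lower, and without high fat replicate 3, or chow replicates 2 or 3, 4 were lower. Hspa5 (chromosome 2, 34772090 to 34776529), the ER chaperone BiP, was at 185, 213 and 219 FPKM on chow and 140.1, 131 and 119 on high fat. The groups did not overlap, the change was -0.65 ± 0.16 (adjusted p = 0.00601), and the difference from control, where the libraries read 223, 170.4 and 224 on chow and 246, 244 and 264 on high fat, was -0.95 ± 0.23 (adjusted p = 0.015). Hsp90b1, the chaperone GRP94, was at 183, 217 and 204 FPKM on chow and 160.1, 147 and 146 on high fat. The change was -0.41 ± 0.09 (adjusted p = 0.00295), and the difference from control was -0.66 ± 0.13 (adjusted p = 0.00594). Dnajc3, a cochaperone of BiP, changed by -0.41 ± 0.10 (adjusted p = 0.00507) with a difference of -0.41 ± 0.14 (adjusted p = 0.0711), which passed with size factors (adjusted p = 0.02). Sdf2l1 changed by -1.05 ± 0.25 (adjusted p = 0.00507), not called in a fit of the groups compared (adjusted p = 0.0582), and differed by -1.59 ± 0.35 (adjusted p = 0.0106).

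Xbp1 and Herpud1 were not called (0.37 ± 0.19, adjusted p = 0.151 and -0.17 ± 0.31, adjusted p = 0.73), although Xbp1 rose without high fat replicate 3 (0.54, adjusted p = 0.0422). The promoters of this list are shown for the ER stress response element, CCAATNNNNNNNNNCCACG (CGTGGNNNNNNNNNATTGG on the other strand), which NF-Y and ATF6 are known to bind and which contains the CCAAT letters searched above. It stood in the 250 bases before the start of 9 of 19 matched list genes (47.4%), against 0.1% of 27025 genes, 35 in all. The list was written as genes of the unfolded protein response, and the share counts its members whether called or not. It therefore describes the list and not the falls. The 150 bases before the RefSeq start (GRCm38.p6), with the element in capitals, were these.
Hspa5 (chr2:34771940-34772089, plus strand): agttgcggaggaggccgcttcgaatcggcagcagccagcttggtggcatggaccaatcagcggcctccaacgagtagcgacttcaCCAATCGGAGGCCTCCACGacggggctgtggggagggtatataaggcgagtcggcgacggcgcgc
Hsp90b1 (chr10:86705445-86705594, minus strand): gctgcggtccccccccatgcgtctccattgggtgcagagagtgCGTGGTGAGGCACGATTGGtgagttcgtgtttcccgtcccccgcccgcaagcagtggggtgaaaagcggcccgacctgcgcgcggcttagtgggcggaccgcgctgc
Dnajc3 (chr14:118937782-118937931, plus strand): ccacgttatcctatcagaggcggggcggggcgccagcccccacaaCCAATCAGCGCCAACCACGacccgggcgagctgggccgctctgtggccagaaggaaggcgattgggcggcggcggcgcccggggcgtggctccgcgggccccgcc

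**Figure D4:**
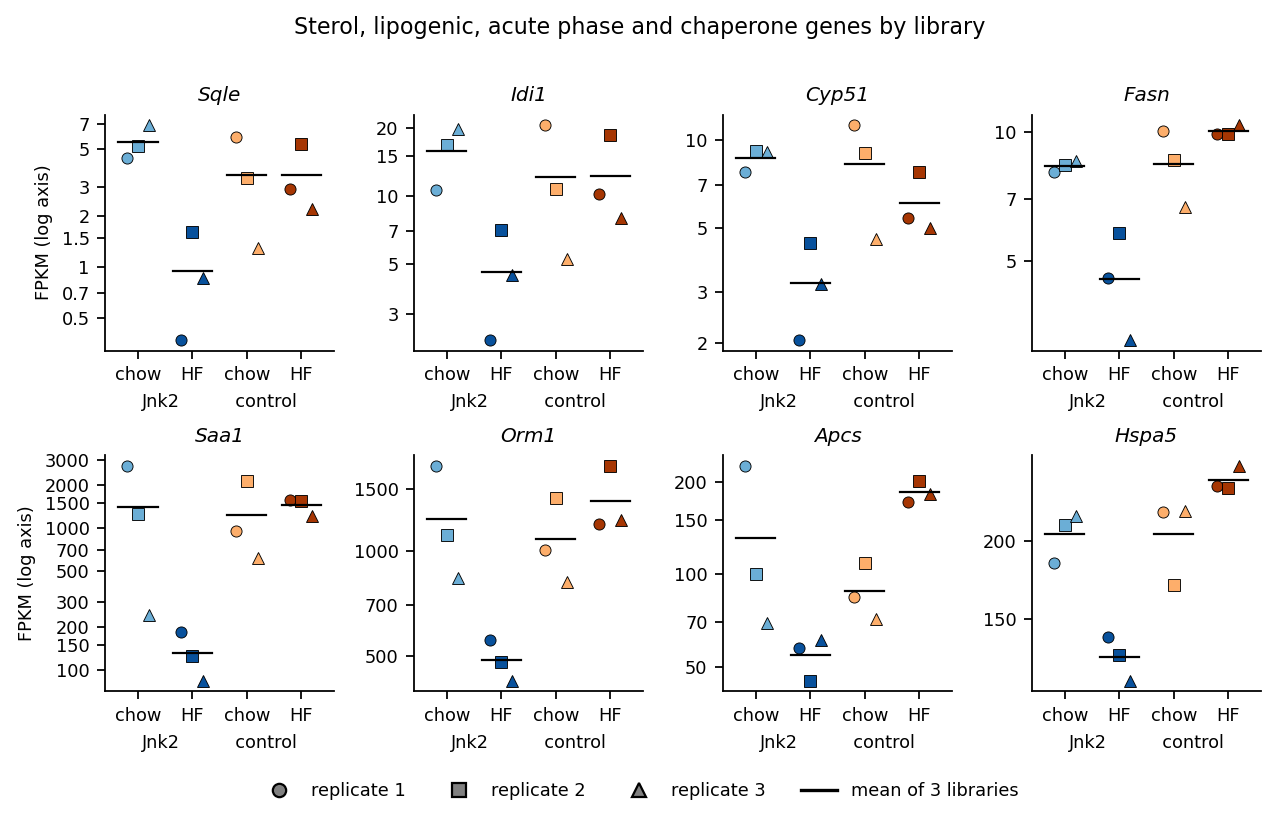
FPKM on a log axis for 8 sterol, lipogenic, acute phase and chaperone genes in chow and high fat (HF) libraries of Jnk2 and control livers; each point is a library and each line a mean of 3. High fat Jnk2 libraries lie below all chow Jnk2 libraries in every panel, while control libraries overlap between diets for Sqle, Idi1 and Cyp51 and lie higher on high fat for Apcs and Hspa5.

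Interferon-stimulated genes rose in Jnk2 livers as they did in control. Of 25 tested loci 21 were higher and 0 lower, with a median of 0.89; in control 24 were higher, with a median of 1.09, and the diet changes differed at 3. With size factors 17 were higher. Ifit3 (chromosome 19, 34583529 to 34588982), an antiviral protein gene whose family members share sequence, was at 1.67, 1.8 and 1.9 FPKM on chow and 8.7, 7.61 and 3.6 on high fat. Its rise was 1.38 ± 0.23 (adjusted p = 0.000282). Cxcl10, a chemokine that draws in T cells, was at 0.87, 1.67 and 1.92 FPKM on chow and 6.97, 8.47 and 4.09 on high fat. It rose by 1.57 ± 0.21 (adjusted p = 5.07e-05). In both genes all high fat libraries lay above all chow libraries and replicate 3 was the lowest of the 3.

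Ifit1 was at 1.96, 2.25 and 2.54 FPKM on chow and 5.5, 6.29 and 3.55 on high fat. The rise was 0.89 ± 0.21 (adjusted p = 0.00533), smaller than in control, where it went from 1.71, 1.39 and 2.16 on chow to 8.36, 11.7 and 7.63 on high fat; the difference of -0.99 ± 0.30 (adjusted p = 0.0448) was lost without any one of 10 of the 12 libraries (adjusted p = 0.0501 to 0.127). Isg15, an interferon-induced ubiquitin-like modifier, was at 7.53, 7.6 and 7.19 FPKM on chow and 18.1, 22 and 8.2 on high fat. Its rise of 0.92 ± 0.32 (adjusted p = 0.0413) was not called with size factors (adjusted p = 0.0816), in a fit of the groups compared (0.111) or without any library other than replicate 3 (0.0817 to 0.188). Ifi27l2b, an interferon-induced gene, was at 2.23, 2.37 and 1.51 FPKM on chow and 18.3, 11.2 and 12.7 on high fat. Its rise was 2.29 ± 0.20 (adjusted p = 4.45e-07), which exceeded the control change by 1.20 ± 0.28 (adjusted p = 0.0125).

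Promoters of the list were searched for the interferon-stimulated response element GAAANNGAAA (TTTCNNTTTC on the other strand), which interferon-activated transcription factors bind. It stood in the 250 bases before the start of 12 of 21 matched list genes (57.1%), against 3.5% of 27025 genes. The list was written as interferon-stimulated genes, and the share counts its members whether called or not. It therefore describes the list and not the rises. The promoters below come from genes described above (RefSeq, GRCm38.p6) and are printed with the matches in capitals; overlapping matches run together in Isg15.
Ifit1 (chr19:34640739-34640888, plus strand): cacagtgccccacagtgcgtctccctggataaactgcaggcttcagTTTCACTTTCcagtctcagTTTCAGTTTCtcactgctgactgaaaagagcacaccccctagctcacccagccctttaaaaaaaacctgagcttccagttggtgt
Ifit3 (chr19:34583379-34583528, plus strand): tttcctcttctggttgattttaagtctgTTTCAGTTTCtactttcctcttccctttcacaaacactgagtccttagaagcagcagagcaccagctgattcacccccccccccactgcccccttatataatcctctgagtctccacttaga
Isg15 (chr4:156200819-156200968, minus strand): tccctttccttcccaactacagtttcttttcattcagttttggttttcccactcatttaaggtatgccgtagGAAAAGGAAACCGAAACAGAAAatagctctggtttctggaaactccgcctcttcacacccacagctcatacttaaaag

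Antigen presentation and macrophage genes were higher on high fat. All 6 tested loci of MHC class II presentation rose, with a median of 1.11. H2-Aa, a class II chain, was at 17.2, 19.1 and 13.2 FPKM on chow and 35.6, 37.6 and 52.8 on high fat. It rose by 1.29 ± 0.20 (adjusted p = 0.000199), and Ctss, the protease that frees class II for peptide loading, rose by 1.04 ± 0.20 (adjusted p = 0.000848). Of 22 tested macrophage and Kupffer cell markers 16 were higher and 0 lower, with a median of 0.89 against 0.60 in control, and none of the 22 differed from control. Their summed level was 405 to 509 FPKM on chow and 733 to 917 on high fat; in control it was 388 to 550 and 640 to 723. In bulk liver more cells of a type and more RNA per cell cannot be told apart.

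Some markers of lipid-laden, newly recruited macrophages rose from low levels. Gpnmb (chromosome 6, 49036518 to 49058182) was at 0.278, 0.107 and 0.011 FPKM on chow and 4.49, 2.47 and 7.66 on high fat and rose by 2.28 ± 0.57 (adjusted p = 0.00651). Mmp12, a macrophage elastase, was at 0.336, 0.268 and 0.174 FPKM on chow and 6.43, 3.39 and 5.75 on high fat and rose by 2.26 ± 0.45 (adjusted p = 0.00132). Trem2, a lipid-sensing receptor, was at 0.703, 0.815 and 0.714 FPKM on chow and 2.99, 2.86 and 4.74 on high fat and rose by 1.35 ± 0.36 (adjusted p = 0.0099). These genes were under 1 FPKM in every chow library and passed the level filter only through libraries where they were higher. No chow library reached any high fat library in these genes, but with a pseudocount of 10 Gpnmb and Trem2 were not called (adjusted p = 0.0951 and 0.107). Their differences from control were 2.08 ± 0.81 (adjusted p = 0.103), 1.72 ± 0.63 (adjusted p = 0.088) and 0.68 ± 0.51 (adjusted p = 0.413). Those of Gpnmb and Mmp12 passed in a fit of the groups compared (adjusted p = 0.019 and 0.0141). Cd9, of the macrophage marker list, and Spp1, of the chemokine list, were not called (0.17 ± 0.23, adjusted p = 0.632 and 0.31 ± 0.20, adjusted p = 0.265).

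Cd68, a lysosomal protein of all macrophages, was at 4.83, 5.47 and 5.42 FPKM on chow and 15.9, 13.2 and 19.1 on high fat. The rise was 1.44 ± 0.19 (adjusted p = 4.5e-05). Clec4f, a receptor of resident Kupffer cells, was at 29.7, 28.1 and 25.2 FPKM on chow and 39.8, 51.5 and 52.9 on high fat. Its rise was 0.77 ± 0.13 (adjusted p = 0.000494), beside 0.75 ± 0.13 (adjusted p = 0.00096) in control. Timd4 and Marco, also Kupffer cell genes, were not called (0.53 ± 0.20, adjusted p = 0.0611 and 0.25 ± 0.55, adjusted p = 0.777), although Timd4 passed without high fat replicate 1 (adjusted p = 0.0403). Ccl2, which recruits monocytes, was at 0.469, 0.444 and 0.261 FPKM on chow and 3.52, 2.38 and 2.08 on high fat. It rose by 1.38 ± 0.24 (adjusted p = 0.000485). Of 16 markers of T, B and NK cells 1 passed the level filter and it was not called, and the markers summed to 3.47 to 6.06 FPKM on chow and 7.18 to 11.7 on high fat.

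Collagen and other matrix genes rose, 8 of 17 by more than in control. Of 17 tested loci 13 were higher and 0 lower, with a median of 1.02; in control 1 was called and the median was 0.23. Size factors and length trend removal left 13 higher. The list held 26 genes, and at a mean of at least 5 FPKM 4 loci were tested and 3 were higher. Col3a1 (chromosome 1, 45311538 to 45349706), a fibrillar collagen, was at 1.97, 1.3 and 1.24 FPKM on chow and 9.98, 7.33 and 9.67 on high fat. The rise was 2.00 ± 0.25 (adjusted p = 2.62e-05). Col1a1, the main collagen of scar, was at 1.32, 0.773 and 0.327 FPKM on chow and 5.61, 3.96 and 6.11 on high fat. Its rise was 1.80 ± 0.29 (adjusted p = 0.000276). Col4a1, a basement membrane collagen, was at 3.21, 2.57 and 2.16 FPKM on chow and 7.1, 6.41 and 8.75 on high fat. It rose by 1.21 ± 0.15 (adjusted p = 2.74e-05). Control libraries were at 2.86, 3.25 and 3.27 on chow and 3.99, 2.75 and 4.07 on high fat, and the diet changes differed by 1.06 ± 0.21 (adjusted p = 0.00653). The 3 high fat libraries lay above the 3 chow libraries for each.

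The differences of Col3a1 and Col1a1 from control were 1.32 ± 0.35 (adjusted p = 0.0232) and 1.49 ± 0.41 (adjusted p = 0.0306). That of Col3a1 was lost without chow control replicate 3, chow replicate 3 or high fat control replicate 2 (adjusted p = 0.0536, 0.0624 and 0.0704), and that of Col1a1 without any one of 8 libraries (0.0513 to 0.091). Tgfb1, the cytokine that drives collagen synthesis, was at 3.77, 2.65 and 2.96 FPKM on chow and 6.89, 7.27 and 9.08 on high fat. The rise was 1.08 ± 0.16 (adjusted p = 0.000157). Sparc, a collagen-binding matrix protein, rose by 1.19 ± 0.16 (adjusted p = 6.02e-05). Timp1, an inhibitor of matrix breakdown, was under the level filter, at 0.103, 0.056 and 0.288 FPKM on chow and 1.73, 1.61 and 0.613 on high fat.

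Stellate and endothelial cell markers were higher beside the matrix genes. Stellate markers, which include Col3a1, had 7 of 11 tested loci higher and 0 lower, with a median of 0.58 against 0.28 in control, and summed to 105 to 118 FPKM on chow and 160 to 212 on high fat. Lrat, which stores retinol in stellate cells, rose by 0.53 ± 0.11 (adjusted p = 0.00194), and Acta2, smooth muscle actin, by 0.82 ± 0.22 (adjusted p = 0.00969). Endothelial markers had 11 of 14 higher and 0 lower, with a median of 0.70 against 0.06 in control, and 6 of 14 had a more positive change in Jnk2. Their sum went from 103 to 117 FPKM on chow to 180 to 191 on high fat, and in control from 98.6 to 117 and 110 to 121. Eng (chromosome 2, 32646595 to 32682669), endoglin, was at 14.1, 13.2 and 11.7 FPKM on chow and 25.9, 25.8 and 25.3 on high fat. Its rise was 0.93 ± 0.10 (adjusted p = 6.96e-06); control, at 11.7, 14.3 and 14.6 on chow and 15.5, 11.4 and 14.7 on high fat, overlapped between diets, and the difference was 0.90 ± 0.14 (adjusted p = 0.00098). Icam2, an endothelial adhesion protein, was at 1.29, 1.72 and 1.26 FPKM on chow and 3.6, 3.75 and 3.76 on high fat. It rose by 0.96 ± 0.12 (adjusted p = 2.62e-05), and the difference from control was 1.37 ± 0.17 (adjusted p = 0.000155). The part of these cells in the matrix results was not tested.

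Krt23 (chromosome 11, 99477973 to 99493110), a keratin of bile duct cells and injured hepatocytes, was at 1.23, 1.55 and 1.18 FPKM on chow and 11, 8.64 and 11.2 on high fat. It rose by 2.28 ± 0.29 (adjusted p = 4.07e-05) and differed from control, where it was at 2.26, 1.99 and 4.44 on chow and 1.35, 1.15 and 1.63 on high fat, by 2.94 ± 0.42 (adjusted p = 0.000505). The bile duct keratin Krt19 and the ductal marker Epcam were at most 2.21 and 0.826 FPKM in these 6 libraries and were not tested. Anxa2, a membrane protein of proliferating and injured epithelium, was at 4.62, 4 and 3.95 FPKM on chow and 36.4, 25.3 and 33.4 on high fat. The rise was 2.64 ± 0.21 (adjusted p = 1.97e-07), and the difference from control was 1.32 ± 0.30 (adjusted p = 0.0106). Lamb3, a laminin chain of epithelial basement membrane, was at 2.43, 2.1 and 1.92 FPKM on chow and 10.1, 9.97 and 16.1 on high fat. Its rise was 2.02 ± 0.17 (adjusted p = 3.94e-07), while control stayed at 3.29, 2.12 and 2.86 on chow and 3.53, 2.32 and 2.84 on high fat, a difference of 1.97 ± 0.24 (adjusted p = 0.000155). Ccnd1, cyclin D1, was at 3.7, 3.89 and 3.7 FPKM on chow and 8.2, 8.63 and 15.1 on high fat. It rose by 1.24 ± 0.25 (adjusted p = 0.00138), beside a rise of 1.16 (adjusted p = 0.00367) in control. In all, 7 of 12 tested cell cycle loci were higher, 4 without chow replicates 2 or 3 or high fat replicates 1 or 2. No cell cycle locus differed in its diet change from control or from Jnk1. At a mean of at least 5 FPKM 4 of these loci were tested and 2 were higher. Of 5 tested erythroid markers 3 were higher, among them Alas2, which starts haem synthesis in red cell precursors, at 0.87 ± 0.17 (adjusted p = 0.00161). The other 2 are loci of 1 gene, Hba-a2, a globin, and the count was 1 without high fat replicate 1 and 2 without high fat replicate 2.

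**Figure D5:**
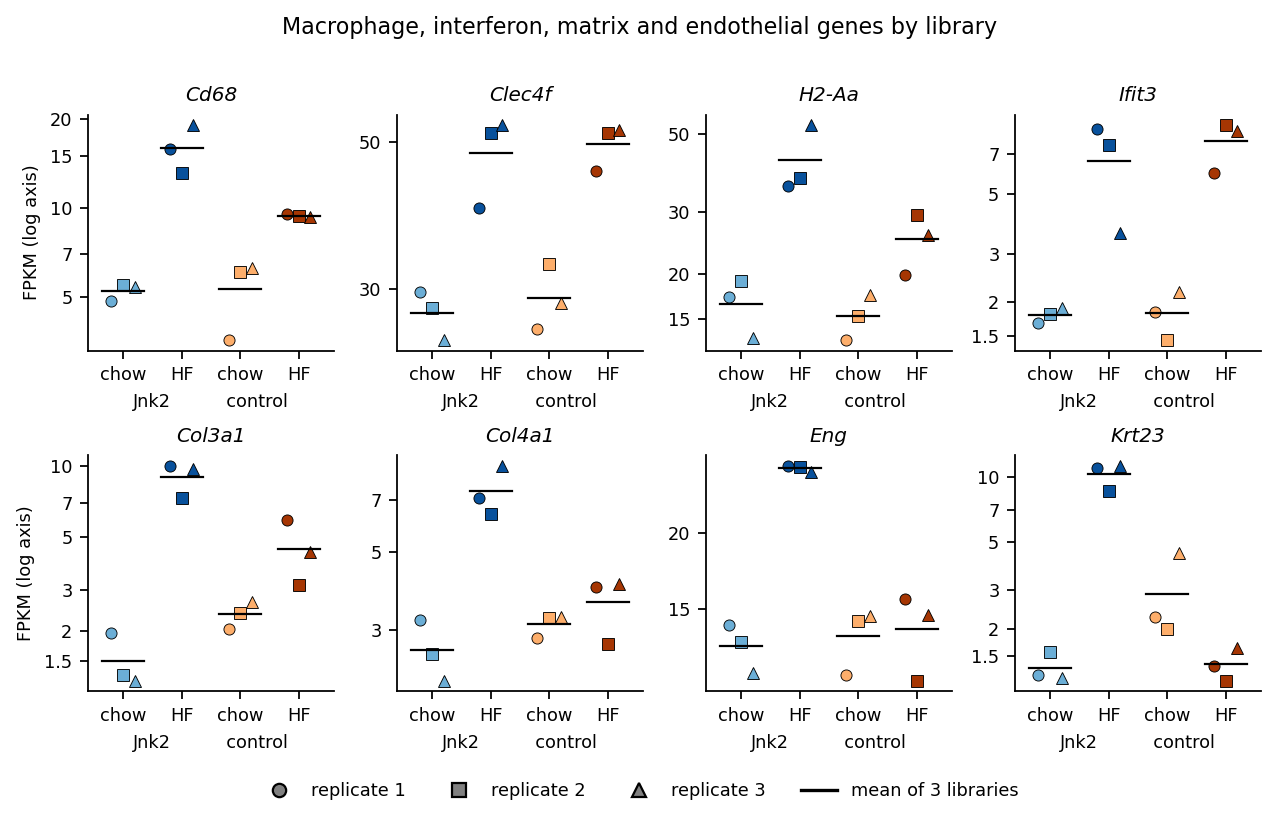
FPKM on a log axis for 8 macrophage, antigen presentation, interferon, matrix, endothelial and keratin genes in chow and high fat (HF) libraries of Jnk2 and control livers; each point is a library and each line a mean of 3. For all 8 the high fat Jnk2 libraries lie above the chow Jnk2 libraries, while control libraries overlap between diets for Eng and lie lower on high fat for Krt23.

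Genes of drug metabolism fell more often than they rose. The list of 23 tested loci held P450 genes, other genes and those of the nuclear receptors CAR and PXR. Of these loci 2 were higher and 7 lower, 11 with the length trend removed, with a median of -0.42. The falls included Sult1d1 and Ces2a, which are not P450 genes. Cyp3a11 (chromosome 5, 145854607 to 145879854), the main bile acid and drug hydroxylase of mouse liver, was at 1306, 1277 and 1403 FPKM on chow and 394, 271 and 296 on high fat. The change was -2.07 ± 0.29 (adjusted p = 7.94e-05); control fell further (-3.45 ± 0.29, adjusted p = 5.86e-07). The difference of 1.39 ± 0.41 (adjusted p = 0.0389) was lost without any one of 10 of the 12 libraries (adjusted p = 0.0517 to 0.11). Cyp3a13 was at 108, 91.3 and 94.8 FPKM on chow and 61.2, 51.9 and 61.7 on high fat. Its change was -0.74 ± 0.12 (adjusted p = 0.000249), opposite to control (0.44 ± 0.12, adjusted p = 0.0164), and the difference was -1.18 ± 0.17 (adjusted p = 0.000505). Ces2a, a carboxylesterase, fell in both genotypes (-1.30 ± 0.18, adjusted p = 6e-05 and, in control, -1.51 ± 0.18, adjusted p = 2.18e-05). The receptors themselves, Nr1i3 (CAR) and Nr1i2 (PXR), were not called (-0.21 ± 0.22, adjusted p = 0.515 and 0.06 ± 0.16, adjusted p = 0.833).

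The 2 that rose were Cyp2b9 and Cyp2b13, near-identical genes that are expressed mostly in females and whose reads may be split. Cyp2b9 was at 0.17, 0.115 and 0.071 FPKM on chow and 111, 66 and 5.66 on high fat. It rose by 5.04 ± 0.65 (adjusted p = 3.72e-05), and 6.27 (adjusted p = 1.46e-08) without replicate 3. Replicate 3 was far below the others but above all chow libraries, and control rose too (5.97 ± 0.65, adjusted p = 1.37e-05). Cyp2b13 was listed at 0 in all chow libraries and at 7.95, 4.29 and 0.0317 FPKM on high fat. Cyp7b1, a male-biased oxysterol hydroxylase, was at 138, 139.6 and 152 FPKM on chow and 49.7, 71.6 and 76.3 on high fat. The change was -1.13 ± 0.20 (adjusted p = 0.000539). Ahr, the aryl hydrocarbon receptor gene, was at 11.7, 10.8 and 11.1 FPKM on chow and 5.62, 5.79 and 6.19 on high fat. Its change was -0.83 ± 0.12 (adjusted p = 8.2e-05) against a rise in control (0.48 ± 0.12, adjusted p = 0.00844), and the difference was -1.31 ± 0.17 (adjusted p = 0.000164).

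Bile acid genes had 7 of 24 tested loci lower and 1 higher, with 3 lower without chow replicate 1, and 4 without high fat replicate 2 or in a fit restricted to the groups compared. Abcc2, the canalicular exporter of conjugated bilirubin, was at 78, 73.8 and 81.6 FPKM on chow and 43.1, 35.2 and 49.1 on high fat. It changed by -0.87 ± 0.22 (adjusted p = 0.00639). Cyp7a1, which sets the rate of bile acid synthesis, was at 37.2, 29.5 and 43 FPKM on chow and 19.2, 22.1 and 25.2 on high fat; the diet groups did not overlap, but the change of -0.69 ± 0.34 (adjusted p = 0.144) was called only in a fit of the groups compared (adjusted p = 0.0407) and with array weights (0.0434). It rose in control, at 15.9, 17.7 and 27.8 on chow and 42.8, 52.7 and 42.2 on high fat, and the difference of -1.85 ± 0.48 (adjusted p = 0.0224) was lost without chow control replicates 1 or 2, chow replicate 3 or high fat control replicate 2 (adjusted p = 0.051 to 0.0622).

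Many genes of amino acid catabolism and the urea cycle fell in both genotypes. Of 36 tested loci 2 were higher and 17 lower in Jnk2, with a median of -0.43; in control 19 were lower, with a median of -0.52, and no locus differed between them. The lower count was 8 in a fit restricted to the groups compared and 11 without high fat replicate 2. Tat (chromosome 8, 109990436 to 109999804), the tyrosine aminotransferase that glucocorticoids induce, was at 982, 824 and 1081 FPKM on chow and 197, 246 and 583 on high fat. The change was -1.65 ± 0.31 (adjusted p = 0.000878). Asl, argininosuccinate lyase of the urea cycle, was at 797, 681 and 806 FPKM on chow and 244, 251 and 503 on high fat. Its change was -1.27 ± 0.20 (adjusted p = 0.000224), and Cth, which makes cysteine, changed by -1.33 ± 0.23 (adjusted p = 0.000533). Got1, an aspartate aminotransferase, was at 286, 227 and 263 FPKM on chow and 39.6, 60.8 and 236 on high fat. Its change of -1.62 ± 0.40 (adjusted p = 0.00561), or -2.37 (adjusted p = 3.79e-06) without replicate 3, was not called in a fit of the groups compared (adjusted p = 0.129). Without replicate 3 Tat changed by -2.11 (adjusted p = 2.38e-05). Replicate 3 was the nearest to chow in all 4, and within the chow range for Got1.

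Cytosolic ribosomal protein genes had 0 of 30 higher and 8 lower, with a median of -0.24 against -0.14 in control. The lower count was 15 with the length trend removed and 2 to 5 without chow replicates 1 or 3 or high fat replicates 1 or 3, and these are short transcripts with many near-identical pseudogene copies. Oxidative phosphorylation had 3 higher and 1 lower of 30, and none higher with size factors or without high fat replicate 1.

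AP-1 and immediate early genes had 4 of 14 tested loci higher and 0 lower, beside 19.7% and 6.39% of all tested loci. The median was 0.46 against -0.40 in control. At a mean of at least 5 FPKM 7 loci were tested and none was called. Atf3, a stress-induced AP-1 partner, was at 0.523, 0.326 and 0.381 FPKM on chow and 3.56, 2.36 and 3.26 on high fat. It rose by 1.52 ± 0.30 (adjusted p = 0.00147). Klf6, an injury-induced factor, was at 1.8, 2.1 and 1.5 FPKM on chow and 5.1, 3.16 and 6.14 on high fat. The rise was 1.02 ± 0.17 (adjusted p = 0.000324). No chow library reached a high fat library in either. Jun and Fos were not called (0.56 ± 0.27, adjusted p = 0.131 and 0.41 ± 0.56, adjusted p = 0.634), although Jun passed in a fit restricted to the groups compared (adjusted p = 0.0327). Jund was at 28.8, 23.8 and 23.1 FPKM on chow and 28.9, 32.3 and 38.1 on high fat and was not called (0.38 ± 0.16, adjusted p = 0.0824), whereas in control it fell from 56, 43.5 and 46.6 on chow to 28.1, 24.2 and 30.3 on high fat, and the difference was 1.17 ± 0.22 (adjusted p = 0.00451).

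Other stress lists had fewer calls. Targets of NRF2, the oxidant sensor, had 5 of 22 higher and 0 lower, a share near the 19.7% of all tested loci called higher. The count was 8 higher without high fat replicate 3 and 3 without chow replicates 2 or 3 or high fat replicate 1, and 2 higher and 1 lower in a fit of the groups compared. Among the 5 was Hmox1, haem oxygenase 1, at 14.2, 12 and 8.62 FPKM on chow and 23, 20.7 and 30.5 on high fat. Its rise was 1.04 ± 0.26 (adjusted p = 0.00735). ATF4 targets had 5 of 17 higher and 3 lower. These were 3 and 4 with size factors, 2 and 2 without high fat replicate 1, and 3 higher without chow replicates 2 or 3 or high fat replicates 2 or 3. Asns, asparagine synthetase, was at 10.6, 9.27 and 6.73 FPKM on chow and 0.5, 0.808 and 4.64 on high fat. It changed by -1.97 ± 0.48 (adjusted p = 0.00577), or -2.56 (adjusted p = 0.000617) without replicate 3. Gdf15, a stress hormone, was at 4.75, 4.92 and 5.56 FPKM on chow and 16.5, 11.8 and 15 on high fat. The rise was 1.34 ± 0.39 (adjusted p = 0.0167), which was not called without high fat replicate 1 (adjusted p = 0.0635). Clock genes had 2 of 23 lower, a share near the 6.39% of all tested loci called lower. Among the 2 was Per1, a light- and feeding-responsive clock repressor, at 12.9, 11.1 and 12.8 FPKM on chow and 5.55, 7.53 and 8.07 on high fat. Its change was -0.73 ± 0.18 (adjusted p = 0.00514). Dbp, a clock output gene, was at 23.5, 26.6 and 20.5 FPKM on chow and 57.9, 60.5 and 21.8 on high fat; replicate 3 was within the chow range, and Dbp was not called with it (0.83 ± 0.33, adjusted p = 0.0715) but rose without it (1.30, adjusted p = 0.00342). The labels give no time of collection.

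A pair of the largest falls lay outside these lists and were seen in control too. Moxd1 (chromosome 10, 24223517 to 24302783), a monooxygenase gene, was at 8.86, 10.7 and 10.6 FPKM on chow and listed at 0, 0 and 0.166 on high fat, a change of -3.39 ± 0.47 (adjusted p = 7.64e-05). E030018B13Rik was at 11.7, 13.1 and 11.1 FPKM on chow and 0.409, 0.424 and 0.647 on high fat. It changed by -3.12 ± 0.22 (adjusted p = 9.85e-08). In control they changed by -2.98 ± 0.47 (adjusted p = 0.000362) and -2.86 ± 0.22 (adjusted p = 4.59e-07). Gadd45g, a growth arrest gene, was at 41.8, 38.1 and 53.8 FPKM on chow and 9.53, 8.03 and 14.5 on high fat. The change was -1.99 ± 0.45 (adjusted p = 0.00335). Among the rises, Aqp8, a canalicular water channel, was at 6.45, 4.45 and 4.14 FPKM on chow and 47.7, 38.6 and 10.6 on high fat. Its rise was 2.25 ± 0.42 (adjusted p = 0.000821), with replicate 3 the lowest, and 2.89 (adjusted p = 2.1e-05) without it.

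Some of the strongest differences from control were at genes whose diet changes had opposite signs. Fn1 (chromosome 1, 71585523 to 71653171), plasma fibronectin, was at 238, 167 and 173 FPKM on chow and 91, 95.3 and 106 on high fat and, in control, at 143, 135 and 137 on chow and 279, 232 and 221 on high fat. It fell in Jnk2 (-0.96 ± 0.15, adjusted p = 0.000263) and rose in control (0.81 ± 0.15, adjusted p = 0.00183), a difference of -1.77 ± 0.22 (adjusted p = 0.000164). Apob, the structural protein of VLDL, was at 424, 416 and 402 FPKM on chow and 162, 164 and 209 on high fat. It changed by -1.22 ± 0.16 (adjusted p = 4.65e-05), while control was not called (0.17 ± 0.16, adjusted p = 0.519), and the difference was -1.39 ± 0.23 (adjusted p = 0.00155). Lrp1, a lipoprotein remnant receptor, was at 66.4, 44.7 and 43.1 FPKM on chow and 29.1, 34 and 25.4 on high fat. The change was -0.76 ± 0.16 (adjusted p = 0.00193) or -0.48 (adjusted p = 0.0219) with the length trend removed, and the difference was -1.60 ± 0.22 (adjusted p = 0.000488). With the length trend removed Fn1 and Apob changed by -0.84 (adjusted p = 0.00014) and -0.96 (adjusted p = 1.02e-05).

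Scara5, a ferritin receptor, was at 5.19, 4.76 and 3.74 FPKM on chow and 1.07, 0.511 and 1.33 on high fat in Jnk2 and at 0.613, 0.765 and 0.893 on chow and 3.32, 2.21 and 3.44 on high fat in control, so that the Jnk2 chow libraries stood above all control libraries and the high fat libraries of control above those of Jnk2. Its change was -1.51 ± 0.26 (adjusted p = 0.000395) and its difference -2.68 ± 0.36 (adjusted p = 0.000358). Prtn3, a neutrophil serine protease gene, was at 8.14, 1.42 and 0.745 FPKM on chow and 0.73, 0.118 and 0.359 on high fat, with control at 0.553, 0.74 and 0.39 on chow and 11.6, 9.18 and 8.94 on high fat, a difference of -4.09 ± 0.61 (adjusted p = 0.000709); its own fall of 1.29 ± 0.43 (adjusted p = 0.0346) was lost without chow replicate 1 (-0.57, adjusted p = 0.231), in a fit of the groups compared (adjusted p = 0.19) and without any one high fat library (0.0503 to 0.112).

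Against Jnk1 livers, whose diet comparison also shares no library with that of Jnk2, the diet change was more positive in Jnk2 at 15 of 39 PPARα targets and more negative at 13 of 29 acute phase loci. The sterol list differed at 15 of 25 loci, all more negative in Jnk2, against 1 of 25 relative to control. Sqle in Jnk1 livers was at 4.71, 5.95 and 3.34 FPKM on chow and 9.91, 17.4 and 4.22 on high fat, and its diet change differed from that in Jnk2 by -2.64 ± 0.60 (adjusted p = 0.0111). Cidec in Jnk1 livers was at 19.7, 14.9 and 16.5 FPKM on chow and 13.8, 10.9 and 13 on high fat, a difference of 3.05 ± 0.52 (adjusted p = 0.00224). Mgll was at 60.6, 52.1 and 64.7 FPKM on chow and 77.6, 83.3 and 81.1 on high fat there, a difference of 0.77 ± 0.14 (adjusted p = 0.00289). With 3 libraries a side the smallest two-sided p of an exact permutation test is 0.1, and none was run on single genes.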

How the data were processed

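Liver RNA-seq values of 24 libraries were used as FPKM (fragments per kilobase of transcript scaled to the mapped fragments of the library) per locus, which the authors deposited in one table. Per the submitters' processing notes, TopHat, Cufflinks and Cuffdiff were used with mm10; versions are not given in the sources used here. FPKM divides by length and library size, so a few very abundant transcripts can shift all others. FPKM steps at low values gave no depth that most loci share, and depth is treated as unknown.

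Groups came from the labels, and every value column matched a library. Loci with a mean of at least 1 FPKM over the 24 libraries (10562) were tested on log2(FPKM + 1) with limma 3.58.1 in R 4.3.3, in a single fit with 8 groups, a mean-variance trend and Benjamini-Hochberg adjustment at 0.05. Differences between diet effects were contrasts of that fit. A locus under 1 FPKM in a group passes the level filter only through libraries where it is higher. Changes of such low loci are therefore favoured among those tested. Tables and figures were made in Python 3.11.15 with pandas 2.3.3, matplotlib 3.10.9, scipy 1.17.1 and numpy 2.4.6. The limma script was tested on simulated data. Values listed at 0 where all other libraries were high (18 values at 6 loci) were treated as failed estimates. Transcript lengths, the longest transcript of each gene name, came from the GENCODE annotation for 96.6% of tested loci. The length alternative removed a loess trend (span 0.5) from each library. Start positions, counted from 0 in the file, are given from 1.

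The genes named were Mapk8, Mapk9 and Mapk10, the 12 largest non-overlapping rises and falls, up to 4 called members of each list by smallest p, and the called differences with the smallest p. For the largest rises and falls, lack of overlap between diets was a condition of the choice and is no further result. Further genes were added after their values were seen. Some members of the lists, called ones among them, are counted but not reported here by name. The comparison, the members and the lists were chosen with earlier results of these data known. Alternatives were pseudocounts of 0.1 and 10, no filter or a mean of at least 5 FPKM, size factors, quantile normalization, array weights, a replicate block, fits of fewer groups, removal of the length trend and each library left out. Leaving out loci with failed zeros was added after seeing the data.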

Additional observations from a re-analysis of the deposited data

Results flagged for a closer look

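Whether the diet effect in Jnk2 livers differs from that in other genotypes was tested as a contrast of the same limma fit, at an adjusted p under 0.05. It differed from the control diet effect at 1005 loci and from the Jnk1 diet effect at 1118 loci. The values below are differences between diet effects, Jnk2 minus control, on the log2(FPKM + 1) scale.

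Lipid droplet and triglyceride genes with a more positive diet change in Jnk2 than in control were Cidec (3.50), Mgll (1.27), Plin2 (1.40), Pnpla2 (1.06) and Plin5 (1.17). Among fatty acid oxidation genes the differences were Acot2 (2.01), Acot1 (2.35), Acaa1b (1.66), Aldh3a2 (1.06) and Cyp4a14 (1.87). Further members of that group differed as well: Ehhadh (2.23), Creb3l3 (0.64) and Acadm (0.59). Apolipoprotein genes differed in both directions, with Apoa4 (2.23) and Apob (-1.39). Epithelial, keratin and endothelial genes had more positive changes in Jnk2: Krt23 (2.94), Anxa2 (1.32), Lamb3 (1.97) and Icam2 (1.37). Acute phase and cytokine-responsive genes had more negative changes in Jnk2, with Orm1 (-1.65), Apcs (-2.17), Lcn2 (-3.21), Hp (-0.996) and Fgb (-0.98). The metallothioneins and the interleukin 1 receptor gene went the same way, with Mt1 (-1.94), Mt2 (-2.77) and Il1r1 (-1.66). Receptor, matrix and transport genes with more negative changes in Jnk2 were Ahr (-1.31), Fn1 (-1.77), Lrp1 (-1.60), Atp11a (-1.42) and Scara5 (-2.68). Others among the smallest p-values were Reps2 (-0.88), Slc41a2 (-1.90), Mug2 (-1.07), Prlr (-1.04), Mgam (-1.21), Ptprd (-1.53) and Hsd17b11 (1.18). The differences of Ehhadh, Pnpla2 and Lcn2 depend on the libraries and fits named above, and Cyp4a14 and Acot1 have near-identical copies. No cause was tested.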

How the results depend on the processing

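The count of loci changed by diet in Jnk2 livers (2751) was 1662 at a mean of at least 5 FPKM, 4570 with array weights and 1687 in a fit restricted to the groups compared, and 1727 (without chow replicate 3) to 2969 (without high fat replicate 3) with 1 library left out. The count of differences from control (1005) was 2375 with array weights, 655 in a fit of the groups compared and 509 (without chow Jnk2 replicate 3) to 1337 (without high fat control replicate 3) with 1 library left out; leaving out chow control replicate 2 gave 640, chow control replicate 3 gave 631, and it was 569 without high fat control replicate 2. The count of differences from Jnk1 (1118) was 2430 with array weights, 680 in a fit of the groups compared and 528 (without high fat Jnk1 replicate 1) to 1491 (without chow Jnk1 replicate 2) with 1 library left out; it was 529 without chow Jnk1 replicate 1, 583 without chow Jnk2 replicate 3 and 694 without high fat Jnk1 replicate 2. The control diet count (1717) was 3067 with array weights, 1159 in a fit of the groups compared and 1050 (without chow control replicate 3) to 2060 (without high fat Jnk2 replicate 3) with 1 library left out, and it was 1619 without high fat control replicate 3, with 1127 and 1106 without chow and high fat control replicate 2. The filter and the smaller fits test fewer loci or samples; the cause of the other shifts was not tested.

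Quantile normalization gave 1356 higher and 1272 lower loci in Jnk2. Of 195 single loci called in Jnk2, 129 were called under every alternative that tested them. Ehhadh (0.09) reversed to -0.58 without high fat replicate 3 and ranged to 0.57 without replicate 1. Replicate numbers did not pair the samples: the deviations of same-numbered high fat and chow Jnk2 libraries correlated at 0.04, 0.01 and -0.05. With a replicate block the 4 counts were 2706, 924, 1041 and 1633. Depth in reads is unknown, so small differences at low FPKM cannot be separated from counting error.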
